A study of Mus musculus with 4 samples.

Results

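Gland members were cells of the ventral mouse trachea in which 6 secretory-product genes, Dmbt1, Lipf, Sbpl, Dcpp1, Dcpp2 and Dcpp3, together made up at least 2% of the cell's unique molecular identifiers (UMIs), with at least 3 of the 6 genes detected and no UMI of the leukocyte gene Ptprc. Barcodes under 500 genes, or with over 15% of UMIs from mitochondrial genes, had been dropped first. Before that, 1112 barcodes of the ventral knockout and 1684 of the ventral control library met the rule. Of these, 520 in the knockout and 860 in the control were under 500 genes. In dorsal tissue 1 knockout and 6 control barcodes met it, all under 500 genes. The rule found 1413 members among 35901 kept cells of 4 libraries: 592 of 6726 cells in the ventral knockout library and 821 of 9744 cells in the ventral control library, against 0 of 6185 cells in the dorsal knockout library and 0 of 13246 cells in the dorsal control library. Because the members were chosen by their levels of these 6 genes, those levels describe the cells and support nothing further.

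The knockout mice were Ctnnb1-fl/fl and the control mice Ctnnb1-fl/+, so the control also held 1 floxed Ctnnb1 allele. Both carried the drivers P63-CreER and Ki67-lsl-Dre and the reporter Rosa26-rsr-GFP, both received tamoxifen, and tissue was taken 10 days later. CreER is driven by P63, a gene of basal cells, so deletion of Ctnnb1, which encodes beta-catenin, was directed at basal cells, and the fluorescent reporter needs both Cre in a P63 cell and later Dre from Ki67, a gene of dividing cells. Each group was 1 single-cell 5′ library of papain-dissociated tissue, and the number of mice behind a library is not given in the sources used here. No comparison between groups has a replicate check, no test was made, and every interval is a 95% interval for counting error only.

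Submucosal glands lie below the airway surface and secrete fluid, mucus and antimicrobial proteins through ducts. Serous cells of glands are known for lysozyme, lactoferrin and lactoperoxidase, mucous cells for gel-forming mucins and trefoil factors, and myoepithelial cells wrap the acini. Lipf encodes gastric lipase, an acid-stable lipase. Dmbt1 encodes a secreted scavenger-receptor glycoprotein that binds bacteria. Dcpp1, Dcpp2 and Dcpp3 encode demilune cell and parotid proteins of rodent salivary secretions, and Sbpl encodes a spermine-binding-protein-like secreted protein.

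Dcpp1, Dcpp2, Dcpp3 and Sbpl lie in a single cluster on chromosome 17, and Lipf lies on chromosome 19. The bases just before the annotated start are shown for Lipf, Dcpp1, Dcpp2, Dcpp3 and Sbpl. They are also shown for the lysozyme pair Lyz1 and Lyz2 on chromosome 10, whose levels differed between the ventral libraries. Dmbt1 had no entry in the promoter set used, and other genes high in members, such as Ltf, are not shown. Each window holds the last 60 bases before the start, on the gene's strand, from RefSeq on GRCm38.p6, and capitals mark the motif TATAA.
Lipf, chr19:33961188-33961247, plus strand: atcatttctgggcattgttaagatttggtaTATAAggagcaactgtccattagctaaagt
Dcpp1, chr17:23880816-23880875, plus strand: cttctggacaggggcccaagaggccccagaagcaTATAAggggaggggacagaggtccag
Dcpp2, chr17:23898662-23898721, plus strand: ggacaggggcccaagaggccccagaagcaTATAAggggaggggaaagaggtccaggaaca
Dcpp3, chr17:23917398-23917457, plus strand: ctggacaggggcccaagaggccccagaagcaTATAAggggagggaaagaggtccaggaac
Sbpl, chr17:23955274-23955333, minus strand: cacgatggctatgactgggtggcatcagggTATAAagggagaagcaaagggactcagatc
Lyz1, chr10:117292869-117292928, minus strand: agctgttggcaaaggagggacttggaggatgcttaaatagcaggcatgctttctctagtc
Lyz2, chr10:117282273-117282332, minus strand: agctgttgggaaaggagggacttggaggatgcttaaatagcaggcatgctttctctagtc

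The Lipf, Dcpp1, Dcpp2, Dcpp3 and Sbpl windows each held TATAA on the gene's strand, beginning 26 to 31 bases before the start, and the Lyz1 and Lyz2 windows did not hold it. Of 27025 RefSeq promoters of the same length, 5.998% held TATAA on the gene's strand and 7.59% on either strand. The Dcpp windows were 90% to 96.7% identical to each other, and the Lyz1 and Lyz2 windows were 98.3% identical. The transcripts are alike too: Dcpp1 and Dcpp2 were 89.95% identical over their GENCODE transcripts, and between 9.51% and 21.4% of the 90-base stretches of one Dcpp transcript occurred unchanged in another. Counts of single Dcpp genes are therefore uncertain, and Dcpp1 to Dcpp3 are mainly given as a sum. Lyz1 and Lyz2 transcripts were 92.0% identical but shared few 90-base stretches, 3.75% of those of Lyz1.

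Members made up 8.80% of kept cells in the knockout ventral library (8.14% to 9.50%) and 8.43% in the control ventral library (7.88% to 8.99%), so the intervals overlapped. In dorsal tissue a count of 0, with the bound set at 3 cells, allows a share of up to 0.0485% in the knockout library and up to 0.0226% in the control library, and the Clopper-Pearson upper bounds were 0.0596% in the knockout and 0.0278% in the control. The highest 6-gene share in any kept dorsal cell was 0.942% in the knockout library and 0.623% in the control library. The 4 libraries held 144851737 to 286711618 UMIs, and the median kept cell had 12400 to 15845 UMIs. Any pair of libraries shared between 21 and 57 barcodes, and no barcode was shared between the members of the ventral libraries. Scrublet marked 18 members as doublets in the knockout library and 28 in the control library, and these were left in.

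**Figure D1:**
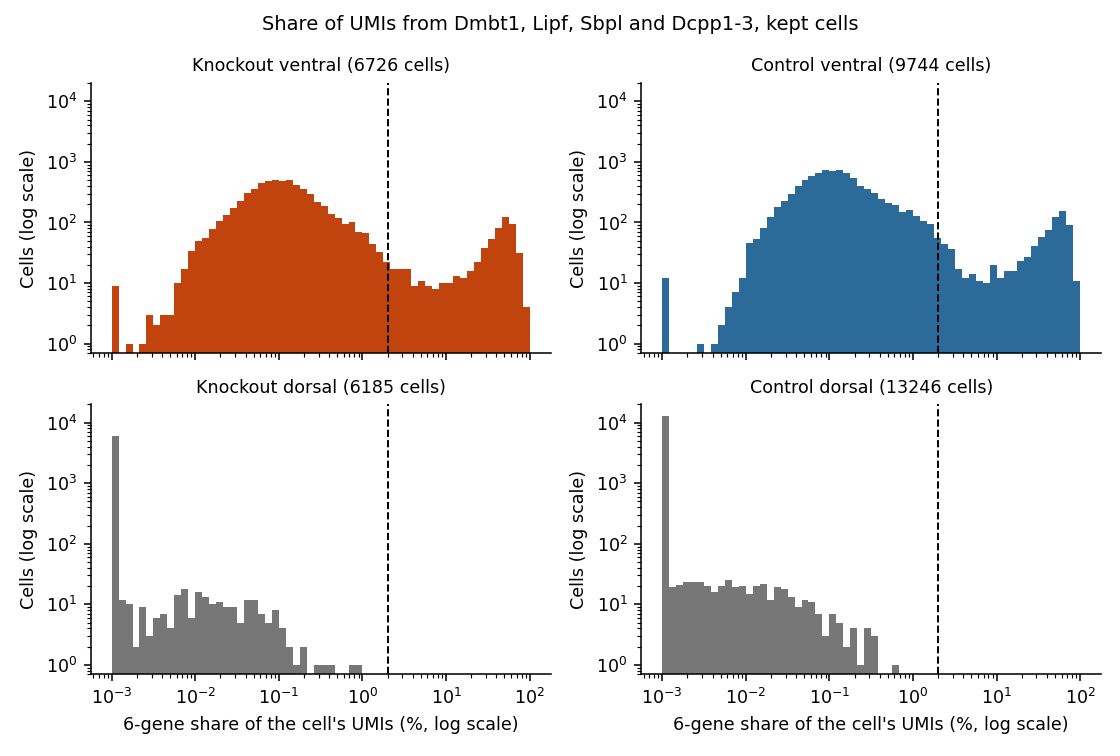
Histograms of the percentage of each kept cell's UMIs that came from the 6 genes (log scale; cells at 0 are drawn in the lowest bin), with the number of cells on a log scale, for each of the 4 libraries; the dashed line is the 2% rule. Both ventral libraries show a broad peak of low shares and a second peak of high shares, and no kept dorsal cell reaches the line.

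The 6 genes filled a large part of these cells' RNA. They made up a median of 42.0% of a member's UMIs in the knockout library, with a highest value of 89.3%, and a median of 43.3% in the control library, with a highest value of 88.4%. Other ventral cells carried the same RNA at low levels: their median 6-gene share was 0.103% in the knockout library and 0.116% in the control library. Members held 97.9% of all UMIs of the 6 genes in the knockout library and 98.4% in the control library. Because these products fill so much of a member's RNA, the counts per 1e+06 UMIs (CPM) of every other gene in members are lowered accordingly.

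The 2% line ran through the tail of the low peak. Just inside it, between 2% and 2.5%, lay 16 knockout and 53 control members, with a median of 1757 UMIs in the knockout and 1249 in the control. Just outside it, between 1.5% and 2%, lay 44 knockout and 117 control cells. These cells were shallow, and few of them clustered with the gland. Members with a share of at least 10% numbered 496 in the knockout library and 644 in the control library, and 94.2% of the knockout ones and 94.9% of the control ones fell in gland-like clusters. Members between 2% and 10% numbered 96 in the knockout library and 177 in the control library, and 40.6% of the knockout ones and 27.7% of the control ones did so.

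Clustering of all 35901 kept cells without the 6 genes placed 1166 of the 1413 members (82.5%) in 2 of 29 clusters, which together held 1300 cells, all of them ventral. Both clusters were named gland-like from Dmbt1, Lipf, Dcpp1, Dcpp2, Dcpp3 and Ltf. Of these markers only Ltf, the iron-binding defence protein lactoferrin, was outside the rule: it made up 3.52% of members' UMIs in the knockout library and 3.44% in the control library, and its CPM was 9.62 times that of secretory-like cells in the knockout library and 10.5 times in the control library. The clusters differed in depth, with medians of 7294 and 58482 UMIs per cell. Outside the gland-like clusters lay 86 knockout members and 161 control members, with median 6-gene shares of 4.99% in the knockout and 3.13% in the control.

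Members held RNA of the secretory marker list: all 8 markers were at or above 1 CPM and summed to 38782 CPM in knockout and 27004 CPM in control members, against 28890 CPM in knockout and 38144 CPM in control fibroblast-like cells. In secretory-like cells the list summed to 447165 CPM in the knockout and 398775 CPM in the control, and in members most of it was Scgb3a1, at 31885 CPM in the knockout and 19024 CPM in the control. Myoepithelial markers summed to 14.01 CPM in knockout members and 12.89 CPM in control members, 4 of 8 were at or above 1 CPM in each library, and Oxtr was at 0 in both. Basal markers summed to 82.2 CPM in knockout members and 88.2 CPM in control members, against 6244 CPM in knockout and 6612 CPM in control basal-like cells. Markers of other cells differed between the libraries in places. Thyroid markers summed to 0.705 CPM in knockout members and 93.1 CPM in control members, and lymphatic endothelial markers to 91.3 CPM in knockout members and 27.9 CPM in control members. Their part in the results was not tested.

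Depth varied widely. Knockout members had 734 to 241248 UMIs with a median of 12942, and control members had 694 to 257578 UMIs with a median of 9724. The deepest members, with at least 50000 UMIs, were 26.2% of knockout and 22.5% of control members but gave 75.5% of the knockout and 72.0% of the control members' UMIs, so summed levels lean on them.

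Among the 6 genes the balance differed between the libraries: Lipf took a larger part of the members' RNA in the knockout and the Dcpp genes a larger part in the control. Lipf made up 21.9% of members' UMIs in the knockout library and 13.0% in the control library, a ratio of 1.68 (1.68 to 1.69). Dcpp1 to Dcpp3 together made up 13.9% in the knockout library and 24.3% in the control library, a ratio of 0.574 (0.573 to 0.575). Most of that gap was counted on Dcpp2, at 4.83% in the knockout library and 13.4% in the control library. Dcpp3 was at 7.89% in the knockout and 9.79% in the control, and Dcpp1 at 1.23% in the knockout and 1.08% in the control. Dcpp1 was above the control in summed UMIs but not as a mean over cells, where the ratio was 0.933. The 10 richest cells gave 63.6% of the Dcpp1 UMIs in the knockout library and 44.2% in the control library. Sbpl made up 8.49% of UMIs in the knockout and 11.1% in the control, and Dmbt1 0.764% in the knockout and 1.32% in the control, a ratio of 0.580 (0.577 to 0.583). Ltf, which the rule did not use, was at a ratio of 1.02 (1.02 to 1.03). With cells weighted equally, the ratio was 1.71 for Lipf, 0.616 for Dcpp1 to Dcpp3 and 0.620 for Dmbt1.

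Nearly all members held UMIs of both Lipf and the Dcpp genes, mostly in unequal parts. Lipf was detected in 100% of knockout and 99.9% of control members, and Dcpp1 to Dcpp3 in 98.0% of knockout and 99.8% of control members. A member was called Lipf/Dmbt1-led when its Lipf and Dmbt1 UMIs outnumbered its Dcpp1 to Dcpp3 UMIs, and Dcpp-led when they were fewer. Of the knockout members 438 were Lipf/Dmbt1-led, 154 were Dcpp-led and 0 were tied. In the control library 477 were Lipf/Dmbt1-led, 341 were Dcpp-led and 3 were tied. The Lipf/Dmbt1-led share was 74.0% in the knockout library (70.3% to 77.5%) and 58.1% in the control library (54.6% to 61.5%). The share of a member's Lipf, Dmbt1 and Dcpp1 to Dcpp3 UMIs that came from Lipf and Dmbt1 was at least 90% in 335 knockout and 265 control members, and below 10% in 85 knockout and 191 control members. It lay from 10% to below 90% in 172 knockout members (29.1%) and 365 control members (44.5%). Of these, 37 knockout and 90 control members lay between 40% and 60%, near the line. The classes thus divide a range with crowded ends and are not types. Sbpl outnumbered both sums in 37 knockout members and 183 control members.

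**Figure D2:**
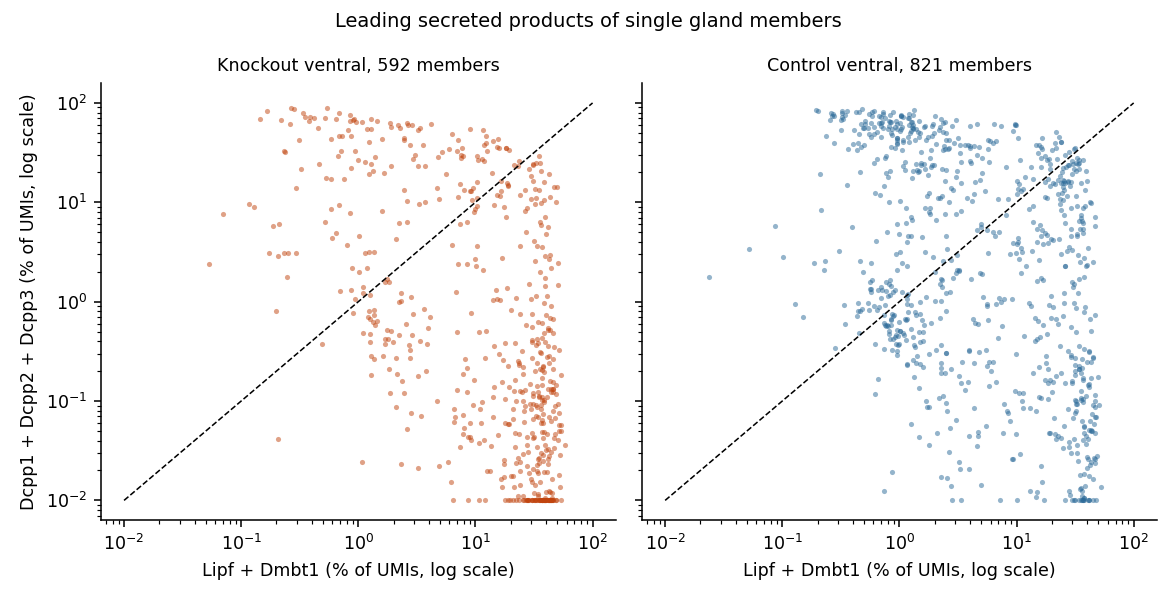
Each point is 1 gland member of the knockout (left) or control (right) ventral library, with the percentage of its UMIs from Lipf and Dmbt1 on the x axis and from Dcpp1 to Dcpp3 on the y axis, both on log scales with values below 0.01% drawn at 0.01%; the dashed line marks equality. Most points of the knockout panel lie below the line at high Lipf and Dmbt1 (438 of 592), and the control panel is more evenly split (477 of 821).

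Lipf ran against Dcpp3 from member to member. Over members with at least 10000 UMIs, 334 in the knockout and 408 in the control, the Spearman correlation of their CPM was −0.60 in the knockout and −0.66 in the control. Between Lipf and Dcpp2 it was weaker, at −0.41 in the knockout and −0.36 in the control. Lipf and Sbpl ran together, at 0.46 in the knockout and 0.48 in the control, and Dcpp1 ran with Dcpp2 at 0.83 in the knockout and 0.90 in the control. These cells share a library and a fixed total, and the Dcpp genes share sequence, so the correlations are descriptions. Lipf and Dmbt1 did not run together, at −0.10 in the knockout and −0.02 in the control, and Dmbt1 was about as high in Dcpp-led members: its ratio between Lipf/Dmbt1-led and Dcpp-led members was 0.837 in the knockout and 1.17 in the control.

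The lead varied with depth. In knockout members the Lipf/Dmbt1-led share was 81.9% below 3000 UMIs, 70.7% from 3000, 77.1% from 10000 and 69.0% from 50000 UMIs. In control members it was 65.2%, 65.5%, 55.6% and 44.9% over the same ranges. The knockout share was above the control share in each of the 4 ranges. Subclustering the members without the 6 genes gave 9 groups, and none was purely of one lead: Lipf/Dmbt1-led shares ran from 61.1% to 91.7% among knockout members and from 49.2% to 87.0% among control members. The knockout share was below the control share in 2 of the 9 groups, at 75% in the knockout and 87.0% in the control in a group of 86 members, and at 61.1% in the knockout and 71.9% in the control in a group of 75.

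The low RNA of these products in other cells leaned the same way between the libraries. In secretory-like cells, which are not gland members, the ratio of Lipf to Dcpp1-to-Dcpp3 UMIs was 1.58 in the knockout library and 1.05 in the control library. It was 1.89 in knockout and 1.11 in control basal-like cells, 1.73 in knockout and 1.13 in control fibroblast-like cells, and 1.62 in knockout and 1.09 in control macrophage-like cells. Within a library the ratio varied little across these 4 classes, but some other classes lay further off. In the knockout it was 5.10 in cluster 20, 2.59 in T cell-like cells and 1.21 in cluster 19. In the control it was 3.77 in thyroid-like cells, 0.82 in cluster 19 and 0.64 in cluster 22. In the members' summed UMIs the ratio was 1.57 in the knockout library, close to the 4 classes. It was 0.535 in the control library, below the 4 classes and nearer to cluster 22.

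Beyond the rule genes, members carried some defence proteins and salivary-type products that were low in secretory-like cells. Of 4663 genes with at least 20 CPM and 50 UMIs in 1 of the classes compared, 124 (2.66%) were past 4-fold higher in members than in secretory-like cells in both ventral libraries and 400 (8.58%) were past 4-fold lower. A gene was counted as past a fold when its whole counting interval lay beyond it. With the 6 genes left out of the totals, the same counts were 301 higher and 180 lower. Members and secretory-like cells differ by the choice of cells, so these counts describe what the cells hold. Of 21 measured defence proteins 6 were past 4-fold higher in members, Ltf, Lyz1, Lpo, Wfdc18, Azgp1 and Pip, and 4 lower, Bpifa1, Sftpd, Reg3g and Chil4, when 2.62% of genes with at least 10 UMIs in each library were higher and 4.4% lower.

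Wfdc18, of the whey acidic protein family of protease inhibitors, averaged 6917 CPM in knockout members and 6880 CPM in control members, against 4.62 CPM in knockout and 7.01 CPM in control secretory-like cells. Lpo, lactoperoxidase, had 176 CPM in knockout and 46.3 CPM in control members, against 0.0918 CPM in knockout and 0.136 CPM in control secretory-like cells. Odam, an odontogenic ameloblast-associated secreted protein, had 553 CPM in knockout and 164 CPM in control members, against 0.490 CPM in knockout and 0.203 CPM in control secretory-like cells. For these 3 genes 10 cells gave 20.2% to 56.5% of the UMIs.

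Other leading genes were of several kinds. Pax1, a paired-box transcription factor, had 50.5 CPM in knockout and 47.6 CPM in control members and Ntrk2, a neurotrophin receptor, had 34.8 CPM in knockout and 23.2 CPM in control members. Both were at or below 0.136 CPM in secretory-like cells of either library. Gp2, a secreted glycoprotein that binds bacterial fimbriae, had 1822 CPM in knockout and 2195 CPM in control members, 165 times the secretory-like level in the knockout and 55.7 times in the control. Gp2 was higher still in cluster 22, at 5172 CPM in the knockout and 6492 CPM in the control. Sod3, the extracellular superoxide dismutase, Derl3, a part of endoplasmic reticulum-associated degradation, B3galt5, a galactosyltransferase, and Mup6, a major urinary protein, were also among the 20 genes ranked highest, as were Ptprt, Thrsp, BC006965, Fgl2, Palmd, Ralyl and Lyz1. Csn3, kappa-casein, and BC037156 were high in few cells: 10 cells gave 99.9% of Csn3 UMIs in the knockout and 86.5% in the control, and 99.2% of BC037156 UMIs in the knockout and 100% in the control.

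Some regulators known from glands were far higher in members, although the list as a whole was not. Of 34 measured gland transcription regulators, 8 were past 4-fold higher in members in both libraries and 2 past 4-fold lower. Among all genes with at least 10 UMIs in each library, 2.62% were higher and 4.4% lower. The list's median log2 ratio over secretory-like cells was −0.77 in both libraries, beside −0.62 in the knockout and −0.63 in the control for all genes with 10 UMIs. Sox10 had 19.5 CPM in knockout and 16.9 CPM in control members, 212 times the secretory-like level in the knockout and 187 times in the control. Bhlha15, a factor of secretory cells with large stores of product, had 21.5 CPM in knockout and 18.2 CPM in control members, against 14.04 CPM in knockout and 18.3 CPM in control cells of the neighbouring cluster 22, and Sox9 had 47.6 CPM in knockout and 38.2 CPM in control members. Etv1, Etv5 and Barx2 were also among the 8. Eya4 and Sox21 were lower in members. Of 33 genes of the endoplasmic reticulum and secretion, 4 were past 4-fold higher and 0 lower: Sdf2l1, Sec11c, Ssr4 and Rab26.

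Fluid transport genes lay in both directions. Of 24 measured, 3 were past 4-fold higher in members, the water channel Aqp1, the potassium channel Kcnn4 and the carbonic anhydrase Car2. Another 6 were lower, among them the sodium channel subunits Scnn1a and Scnn1b. The shares over all genes with at least 10 UMIs in each library were 2.62% higher and 4.4% lower. Kcnn4 had 127 CPM in knockout and 121 CPM in control members, against 5.73 CPM in knockout and 8.86 CPM in control secretory-like cells. Aqp5, the water channel of serous acini, had 926 CPM in knockout and 1081 CPM in control members and stayed within 1.5-fold of secretory-like cells in both libraries. Cftr was near 0, at 0.423 CPM in knockout and 0.365 CPM in control members. Of 16 stress and dissociation genes 0 were higher and 6 lower in members, Hspa1a among them. These levels and counts are over totals that include the 6 rule genes, which lowers the CPM of other genes in members.

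**Figure D3:**
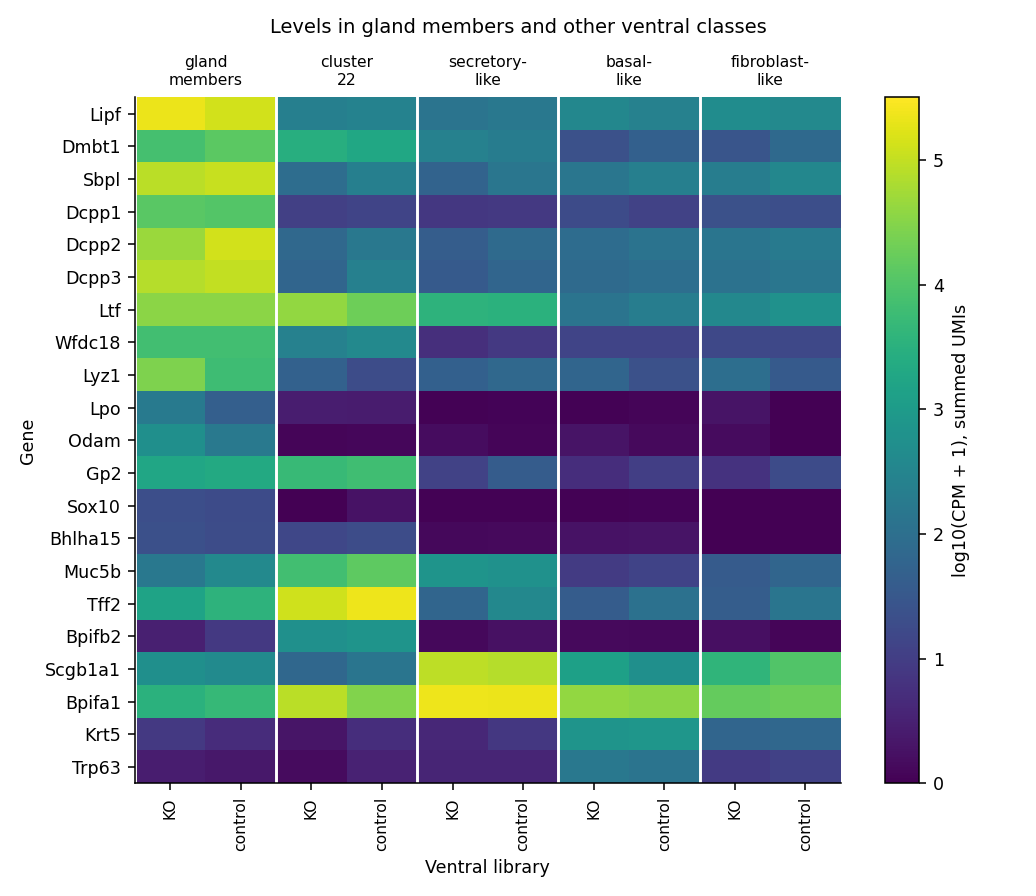
Heat map of log10(CPM + 1) from summed UMIs for genes (rows) in gland members, cluster 22, secretory-like, basal-like and fibroblast-like cells (column pairs, knockout ventral left and control ventral right). The 6 rule genes, Wfdc18, Lyz1, Lpo, Odam and Sox10 are brightest in members, Tff2, Muc5b and Bpifb2 in cluster 22, Scgb1a1 and Bpifa1 in secretory-like cells and Krt5 and Trp63 in basal-like cells.

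Mucous-type products marked a neighbouring ventral population. Cluster 22, which held 119 knockout and 294 control ventral cells and 0 dorsal cells, was left unnamed and had Tff2, Crisp3, Tff1, Bpifb2, Muc5b and Gp2 among its top 10 genes. Its non-member cells had 124959 CPM of the trefoil factor Tff2 in the knockout and 227212 CPM in the control, and 6753 CPM of the gel-forming mucin Muc5b in the knockout and 13516 CPM in the control. Members had 1588 CPM of Tff2 in the knockout and 3669 CPM in the control, and 10 cells gave 96.9% of that in the knockout and 91.5% in the control. Ltf was shared, at 40539 CPM in knockout and 19199 CPM in control cells of cluster 22. Sox10 was not: it had 0 UMIs in knockout and 0.850 CPM in control cells of cluster 22. Lyz1, Odam and Wfdc18 were likewise far lower there, at 49.2 CPM, 0.216 CPM and 260 CPM in the knockout. Only 6 knockout and 25 control members fell in this cluster.

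Lipf/Dmbt1-led and Dcpp-led members differed in summed RNA of lysozyme and of a BPI-fold protein. Of 3249 genes with at least 20 CPM and 50 UMIs, 11 (0.339%) were past 2-fold higher in Lipf/Dmbt1-led members in both libraries and 0 (0%) were past 2-fold lower in both. Within 1 library, 20 were higher and 7 lower in the knockout, and 25 higher and 6 lower in the control. Bpifb1, a secreted BPI-fold protein of airways, had 14880 CPM in Lipf/Dmbt1-led and 72.6 CPM in Dcpp-led members of the knockout, and 7023 CPM in Lipf/Dmbt1-led and 66.0 CPM in Dcpp-led members of the control. That is a ratio of 205 in the knockout (187 to 225) and 106 in the control (99.4 to 114). Over all members 10 cells gave 42.8% of the Bpifb1 UMIs in the knockout and 60.4% in the control, 29.1% of knockout and 12.3% of control members had at least 10 of them, and the median member had 58.5 CPM in the knockout and 0 CPM in the control. Lyz1 had 38549 CPM in Lipf/Dmbt1-led and 1101 CPM in Dcpp-led members of the knockout, and 11909 CPM in Lipf/Dmbt1-led and 793 CPM in Dcpp-led members of the control. Its ratio was 35.0 in the knockout and 15.02 in the control. Over all members 10 cells gave 51.7% of the Lyz1 UMIs in the knockout and 78.1% in the control. Over members with at least 10000 UMIs, Lipf and Lyz1 had a Spearman correlation of 0.11 in the knockout and 0.20 in the control. That of Lipf and Bpifb1 was 0.50 in the knockout and 0.43 in the control. Lyz2 had ratios of 2.72 in the knockout and 3.58 in the control.

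Bpifb5, a relative of Bpifb1, was 7.03-fold higher in Lipf/Dmbt1-led members of the knockout and 19.3-fold higher in those of the control. Csn3, Tff1, Reg3g, Aldh1a1, Basp1 and Cyp2a5 were the other named genes past 2-fold, and 10 cells gave 84.8% to 99.9% of the UMIs of Csn3, Tff1, Reg3g and Cyp2a5 in each library. Genes lower in Lipf/Dmbt1-led members did not pass 2-fold in both. The serine protease gene Prss32 had ratios of 0.329 in the knockout (0.305 to 0.355) and 0.536 in the control (0.492 to 0.584). Scgb3a1, a secretoglobin, had 26282 CPM in Lipf/Dmbt1-led and 44817 CPM in Dcpp-led members of the knockout, and 15283 CPM in Lipf/Dmbt1-led and 22664 CPM in Dcpp-led members of the control. Arginase Arg1 and the protease inhibitor A2ml1 lay the same way, at 0.492 and 0.737 in the knockout and 0.338 and 0.663 in the control. Ltf was alike in both kinds of member, with ratios of 0.991 in the knockout and 1.10 in the control.

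Of the function lists, few members differed by lead. With at least 10 UMIs in each library 0.134% of 13384 genes were past 2-fold higher in Lipf/Dmbt1-led members in both libraries and 0.0224% lower. Of 20 measured defence proteins 5 were higher, Lyz1, Lyz2, Bpifb1, Bpifb2 and Reg3g, and 0 lower. Of 19 mucus genes 1 was higher, Tff1, and of 19 interferon-response genes 1, Ifit1. Of 32 gland transcription regulators 0 were past 2-fold in either direction, and Sox10 was at 1.08 in the knockout and 1.15 in the control.

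**Figure D4:**
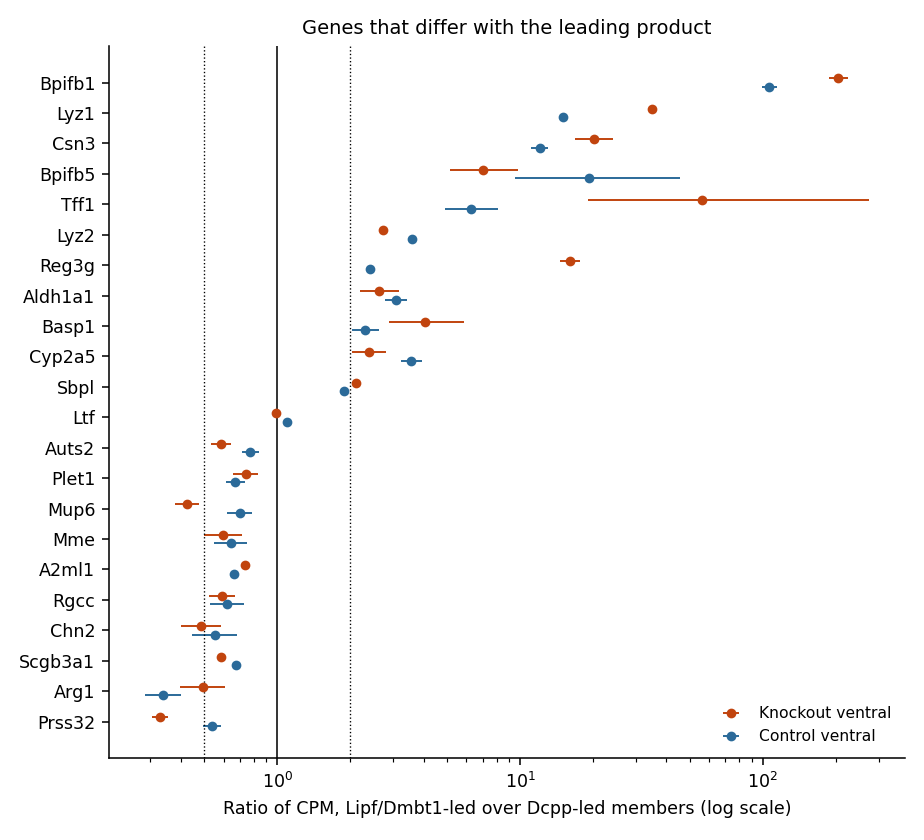
Ratios of CPM between Lipf/Dmbt1-led and Dcpp-led members (log scale) with 95% counting intervals, for the 10 genes named in each direction and for Sbpl and Ltf, with the knockout library above the control library for each gene; dotted lines mark 2-fold. Bpifb1 lies furthest right in both libraries, and no gene on the left has its whole interval past the lower 2-fold line in both libraries.

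Between the ventral libraries, knockout members had more RNA of the lysozymes, of lactoperoxidase and of Bpifb1, Bpifb5 and Bpifb9a, and less of Prb1, Prpmp5 and some interferon-inducible genes. Of 2975 genes with at least 20 CPM and 50 UMIs in members of either library, 16 (0.538%) were past 2-fold higher and 29 (0.975%) past 2-fold lower in knockout members. With the 6 genes left out of the totals the counts were 18 higher and 54 lower. The median of all 2975 log2 ratios was −0.04, and it was −0.18 with the 6 genes left out. For 3 of the higher and 15 of the lower genes, members stood below 10% of the level in another cell class, and these were not ranked; Tg, Itln1, Muc5b and Tff2 were among them. The part of RNA from those cells was not tested.

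Lyz1 had 27229 CPM in knockout members and 6271 CPM in control members, a ratio of 4.34 (4.32 to 4.37). Its level was uneven: 116 of 592 knockout and 60 of 821 control members had at least 10 Lyz1 UMIs, the median member had 87.9 CPM in the knockout and 0 CPM in the control, and 10 cells gave 51.7% of the UMIs in the knockout and 78.1% in the control. Lyz2 had 53729 CPM in knockout and 26479 CPM in control members, a ratio of 2.03. Bpifb1 had 10404 CPM in knockout and 3494 CPM in control members, a ratio of 2.98. Part of the Lyz1 and Bpifb1 gaps went with the lead of the members. Among Lipf/Dmbt1-led members alone the ratio was 3.24 for Lyz1 and 2.12 for Bpifb1, and among Dcpp-led members alone it was 1.39 for Lyz1 and 1.10 for Bpifb1.

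Lpo differed in both kinds of member, at a ratio of 3.79 (3.55 to 4.06) over all members, 2.48 among Lipf/Dmbt1-led and 8.17 among Dcpp-led members. Odam had a ratio of 3.38 over all members, 4.04 among Lipf/Dmbt1-led and 1.51 among Dcpp-led members. Bpifb9a, another BPI-fold gene, had 213 CPM in knockout and 5.68 CPM in control members, a ratio of 37.5, with 10 cells giving 83.5% of its UMIs in the knockout. Its transcript is 99.2% identical to that of Bpifb9b, so reads of these genes can be split between them. Other BPI-fold genes lay the other way: Bpifa1 had 3203 CPM in knockout and 4911 CPM in control members, and Bpifb2 had 1.97 CPM in knockout and 7.18 CPM in control members. Bpifb5 was at 5.44, Esp8, an exocrine-gland secreted peptide, at 3.05 and BC037156 at 3.48. Chd9, a chromatin remodeller, had 1315 CPM in knockout and 349 CPM in control members, and Cep85, a centrosomal protein, had 106 CPM in knockout and 22.4 CPM in control members. Chd9 was also higher in knockout secretory-like cells, by 1.57-fold, and Cep85 by 2.03-fold.

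The proline-rich protein genes Prb1 and Prpmp5 were nearly missing from knockout members. Prb1 had 2.87 CPM in knockout and 668 CPM in control members, a ratio of 0.00429 (0.00328 to 0.00552), and Prpmp5 had 2.63 CPM in knockout and 564 CPM in control members. In the control library 65 of 821 members had at least 10 Prb1 UMIs, against 1 of 592 in the knockout, and 66 control members had at least 10 Prpmp5 UMIs, against 2 in the knockout. In the control 10 cells gave 56.8% of the Prb1 UMIs and 61.5% of the Prpmp5 UMIs. The genes ran together over members with at least 10000 UMIs, at a Spearman correlation of 0.83 in the control and 0.61 in the knockout. Their transcripts were 87% identical over the first 200 bases, so the correlations are descriptions. Both genes were lower in both kinds of member, with Prb1 ratios of 0.00031 among Lipf/Dmbt1-led and 0.0188 among Dcpp-led members. Smr2, a salivary-type androgen-regulated protein, had 0.517 CPM in knockout and 30.7 CPM in control members, but all 758 control UMIs came from 2 of 821 members, and 8 of 592 knockout members held its 11 UMIs there.

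The other genes ranked lowest in knockout members included the interferon-inducible Isg15, Rtp4 and Ifih1 and the clock gene Nr1d1. Isg15 had 12.8 CPM in knockout and 42.0 CPM in control members, a ratio of 0.306 (0.267 to 0.350), beside ratios of 0.431 in secretory-like and 0.536 in basal-like cells. Rtp4 was at 0.363 in members, 0.485 in secretory-like and 0.463 in basal-like cells. The clock repressor Nr1d1 was at 0.304 in members, 0.520 in secretory-like and 0.430 in basal-like cells, and Srp54a, of the signal recognition particle, at 0.340 in members, 0.431 in secretory-like and 0.449 in basal-like cells. Ifih1, an RNA sensor, was at 0.330 in members, 0.80 in secretory-like and 0.783 in basal-like cells. Chac1, a stress-induced enzyme of glutathione breakdown, was at 0.262 in members, 0.849 in secretory-like and 1.18 in basal-like cells, and Plaur, the urokinase receptor, at 0.417 in members, 0.821 in secretory-like and 1.03 in basal-like cells. Whether members differ from those classes was not tested.

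**Figure D5:**
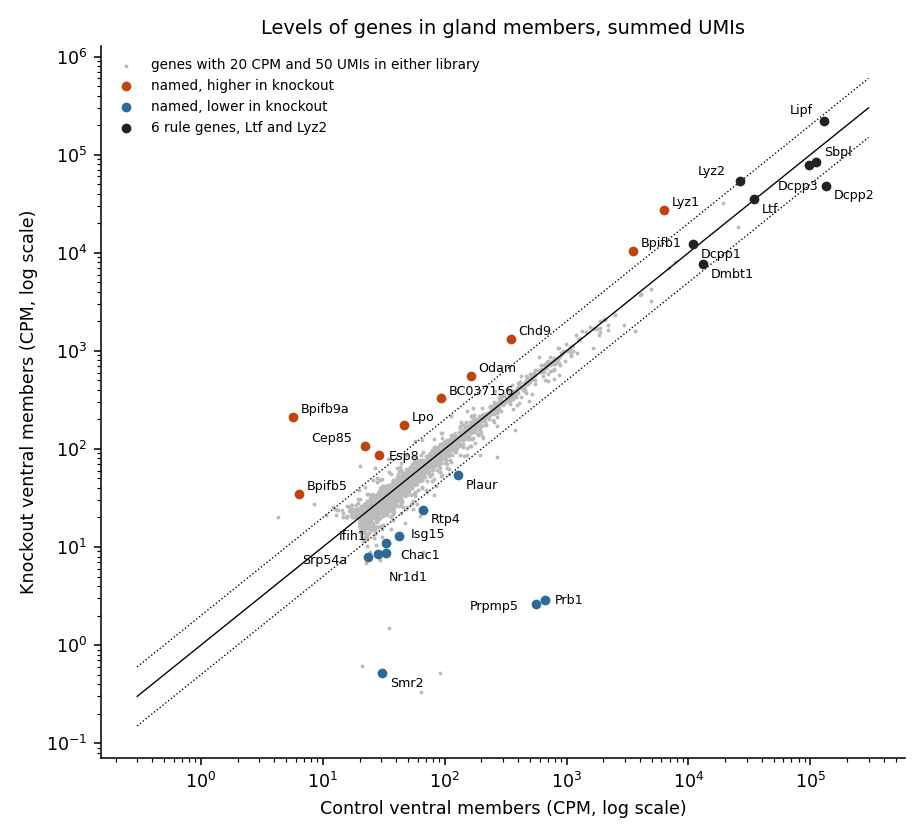
CPM of each gene in knockout ventral members (y axis) and control ventral members (x axis) from summed UMIs, both on log scales, for genes with at least 20 CPM and 50 UMIs in either library; the solid line is equality and the dotted lines are 2-fold. Named genes higher in the knockout, such as Lyz1 and Lpo, lie above the upper dotted line, and Prb1, Prpmp5 and Smr2 lie far below the lower one.

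Described by function, the lists differed in direction. Here a gene was measured with at least 10 UMIs in members of either library, and of 14772 such genes 0.487% were past 2-fold higher and 1.56% past 2-fold lower in knockout members, with a median log2 ratio of −0.06. Of 22 measured defence proteins 5 were higher, Lyz1, Lyz2, Lpo, Bpifb1 and the scarce Defb1, and 2 were lower, the scarce Bpifb2 and Chil4, with a median of 0.21. The immunoglobulin transporter Pigr was level, at 739 CPM in knockout and 734 CPM in control members, and Wfdc2, a protease inhibitor, was at a ratio of 0.631. Of 21 mucus genes 0 were higher and 6 lower, Muc5b, Muc16, Tff2, Fcgbp, Itln1 and Clca1, with a median of −0.62 over all and −1.70 over Dcpp-led members. Members stood below 10% of the level in another class for each of the 6, which was cluster 22 for all but Clca1.

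Of 19 interferon-response genes 0 were higher and 3 lower, Isg15, Ifit1 and Oasl2, with a median of −0.92. Of 14 glucocorticoid and clock genes 0 were higher and 3 lower, Nr1d1, Nr1d2 and Dbp, with a median of −0.30. Of 13 proliferation genes 0 were higher and 2 lower, Ube2c and Cdk1, with a median of −0.96, but both were below 2 CPM, and the median was 0.13 over members in the gland-like clusters. Among 33 endoplasmic reticulum and secretion genes 0 were higher and 1 lower, Ern2, with a median of 0.06 that was −0.06 with the 6 genes left out of the totals and also in Lipf/Dmbt1-led members. Hspa5, the main chaperone there, was at a ratio of 1.05.

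The lists nearest to the deleted gene, of Wnt targets and junctions, held no gene past 2-fold. Over all genes with at least 10 UMIs 0.487% were higher and 1.56% lower, so such counts do not set these lists apart. Of 16 measured Wnt targets 0 were past 2-fold either way, with a median log2 ratio of −0.16, and Axin2 was at 0.611 CPM in knockout and 0.770 CPM in control members. The median was 0.41 over Dcpp-led members alone and −0.22 over Lipf/Dmbt1-led members alone. Of 23 adherens and tight junction genes 0 were past 2-fold, with a median of −0.22, and Cdh1, E-cadherin, had 102 CPM in knockout and 154 CPM in control members. Of 33 gland transcription regulators 0 were past 2-fold, with a median of −0.04, of 6 class II antigen presentation genes 0, with a median of −0.65 over all and −2.33 over Dcpp-led members, and of 16 stress and dissociation genes 0, with a median of −0.25. Of 20 fluid and ion transport genes 0 were higher and 1 lower, the scarce Clca3b, with a median of −0.22 over all and 0.14 over Dcpp-led members. The median of the transcription regulators lay near 0 and above it under 5 settings, with 0.28 in Dcpp-led members.

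Ctnnb1 itself had 44.7 CPM in knockout and 56.6 CPM in control members, a ratio of 0.791 (0.727 to 0.859). Over UMIs other than those of the rule genes its level was 81.5 CPM in knockout and 113 CPM in control members, a wider relative gap. Ctnnb1 had 229 CPM in knockout and 282 CPM in control ventral basal-like cells, and 211 CPM in knockout and 286 CPM in control dorsal basal-like cells. The ratio in ventral secretory-like cells was 0.821. Whether the counted 5′ reads fall in the floxed part of the gene is not given in the sources used here, so these levels do not check the deletion.

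Reporter RNA was found in a larger share of members than of fibroblast-like or macrophage-like cells, which should lack it. After thinning each cell to 3000 UMIs, which left out 94 knockout and 181 control members, eGFP was found in 189 of 498 knockout members, 38.0% (33.7% to 42.4%), and in 206 of 640 control members, 32.2% (28.6% to 36.0%). Without thinning the shares were 71.1% in the knockout and 63.3% in the control. Fibroblast-like cells gave a background of 17.1% in the knockout and 23.4% in the control after thinning, at median depths of 12110.5 UMIs in the knockout and 13518 UMIs in the control. Macrophage-like cells gave 12.5% in the knockout and 24.1% in the control (18.4% to 30.6%), so in the control their interval overlapped that of members. Secretory-like cells gave 25.9% in the knockout and 26.3% in the control, and basal-like cells 35.9% in the knockout and 59.0% in the control. Median depths of the macrophage-like cells were 8695 UMIs in the knockout and 7617.5 UMIs in the control. Those of members were 12942 UMIs in the knockout and 9724 UMIs in the control.

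In CPM the reporter stood at 186 in knockout and 167 in control members, against 248 in knockout and 591 in control ventral basal-like cells, and 280 in knockout and 323 in control cells of cluster 22. The ratio was 1.11 in members and 0.419 in basal-like cells. Over UMIs other than those of the 6 genes the members' level was 340 CPM in the knockout and 333 CPM in the control. The basal genes themselves were near 0 in members: Trp63 was at 1.69 CPM in knockout and 1.26 CPM in control members, against 157 CPM in knockout and 128 CPM in control basal-like cells. Mki67 was found in 0 of 498 knockout and 0 of 640 control members after thinning, and in 0.845% of knockout and 0.609% of control members without it.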

How the data were processed

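Papain-dissociated trachea was profiled with 10x GEM-X Single Cell 5′ v3, per the labels' protocols. The deposited UMI counts per gene and barcode were made by the authors with Cell Ranger 10.0.0 against GRCm39, per the submitters' processing notes. No test was made, since each group was 1 library. UMIs were summed over cells and given as counts per 1e+06 UMIs (CPM), and ratios carry exact conditional binomial intervals and shares Clopper-Pearson intervals, all at 95% and for counting error only. Genes needed at least 20 CPM and 50 UMIs, or 10 UMIs for lists; 0.5 UMIs were added for log2 medians. Clustering used 2000 variable genes without the 6 rule genes, 30 components, 20 neighbours and Leiden resolution 1 (scanpy 1.11.5). The automatic call of Scrublet (scanpy 1.11.5) failed in the ventral libraries, so a rate of 0.4% per 1000 cells was used there. Named genes were the 20 with the furthest bound over secretory-like cells and 10 each way in the other comparisons; unnamed, ribosomal, mitochondrial, immunoglobulin and sex-linked genes were not ranked. The members and lists were chosen with earlier results of these data known. A gene among those ranked is not reported here.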

Additional observations from a re-analysis of the deposited data

Results flagged for a closer look

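For 3 genes the ratio between Lipf/Dmbt1-led and Dcpp-led members lay in opposite directions in the ventral libraries, and the difference was not tested. Sprr1a, a cornified-envelope gene, was at 0.286 in the knockout and 12.4 in the control, and 1 cell gave 86.5% of its UMIs among knockout and 87.6% among control Lipf/Dmbt1-led members. Ccl21a, a chemokine of lymphatic vessels, was at 0.137 in the knockout and 5.77 in the control, and 1 cell gave 55.6% of its UMIs among knockout and 74.9% among control Lipf/Dmbt1-led members. Scgb2b17, a secretoglobin, was at least 30.3-fold higher in the knockout, where Dcpp-led members had 0 UMIs and the bound uses 3 UMIs over the group, and at 0.144 in the control. In the knockout 1 cell gave 96.7% of its 210 UMIs.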

How the results depend on the processing

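No paired analysis was possible because each group is 1 library and no test was made. Of the values that answer a comparison, 54 moved little and 31 moved under another setting, and no named gene turned direction. The member share was 11.1% in the knockout and 12.0% in the control with a 1% rule, 7.85% in the knockout and 7.15% in the control with a 5% rule, 6.72% in the knockout and 5.94% in the control with at least 1000 genes, and 7.52% in the knockout and 6.77% in the control within the gland-like clusters. The control Lipf/Dmbt1-led share was 54.3% with at least 1000 genes and 50.7% with at least 10000 UMIs. Genes past 2-fold between knockout and control were 72 higher and 231 lower with no CPM minimum. They were 10 higher in Lipf/Dmbt1-led members alone and 54 lower with the 6 genes out of the totals. By the mean CPM of single members 54 were lower, counted from the ratio alone without an interval. The median log2 ratio of all genes was −0.0563 with a 1% rule, −0.0197 with a 5% rule, −0.18 with the 6 genes left out, −0.15 in Lipf/Dmbt1-led and −0.00602 in gland-like cluster members, and was above 0 with size factors, at 0.0148, and in Dcpp-led members, at 0.0822. Over secretory-like cells, 301 were higher and 180 lower with the 6 genes left out, and 426 higher and 715 lower with no CPM minimum. By lead, 18 were higher and 4 lower with no CPM minimum and at least 10 UMIs in 1 class of either library, and 3 were lower with the 6 genes left out. Unthinned eGFP shares were 71.1% in the knockout and 63.3% in the control. Of 239 values of named genes 7 no longer passed the fold: in Dcpp-led members alone Lyz1 at 1.39, Odam at 1.51, Bpifb1 at 1.10, Rtp4 at 0.450 and Srp54a at 0.447, in Lipf/Dmbt1-led members alone BC037156 at 2.04, and by the mean of single members Chac1 at 0.520. Of 108 list medians 20 moved; that of class II genes was −1.48 with at least 1000 genes and −1.59 in the gland-like clusters. The causes were not tested. The gland-like-cluster, 10000-UMI and single-member settings were chosen after seeing the data. Depth limits scarce genes, and 1 library per group limits every comparison.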
